A study of Mus musculus with 12 samples.

Results

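The genes described here encode voltage-gated sodium and calcium channels and their accessory subunits. They were chosen by symbol among the protein-coding genes of the count table: every symbol starting with Cacn, and every symbol made of Scn, a number and a or b. The rule used no measured value. The 38 genes described here stand among the 50563 genes of the table, 19 for pore-forming subunits and 19 for accessory subunits. RNA-Seq was made from the brain cortex of 12 E4FAD mice (APOE4+/+, 5FAD-/+), which carry human APOE4 in place of the mouse gene together with the familial Alzheimer's disease transgenes of the 5xFAD line, so that both groups share this background. The CTRL group held 7 mice given vehicle with antioxidants by oral gavage, 2 aged 12 months and 5 aged 14 months. The DPAn-6 group held 5 mice, 2 aged 12 months and 3 aged 14 months, given the long-chain omega-6 lipid docosapentaenoic acid, or DPAn-6, by daily oral gavage at 700 mg/kg for 3 weeks. According to the paper, all groups received the antioxidants. Each mouse gave 1 library, and sex is known per group but not per mouse. Total counts on genes were 15339098 to 19500154 in CTRL and 15208803 to 26520251 in DPAn-6 mice, of which these channel genes took 0.468% to 0.550% and 0.50% to 0.537%.

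Voltage-gated sodium channels carry the rising phase of the action potential, and voltage-gated calcium channels turn a change of membrane voltage into calcium entry that drives transmitter release, gene expression and rhythmic firing. Each channel is built around a large pore-forming alpha subunit with its own voltage sensors. Sodium channel beta subunits set gating and anchor the channel at the membrane, while the alpha2delta (Cacna2d) and cytoplasmic beta (Cacnb) subunits bring high-voltage calcium channels to the cell surface. Most Cacng genes expressed in cortex encode TARPs, which are better known as partners of AMPA-type glutamate receptors than as calcium channel subunits. The comparison asks whether the transcripts of this machinery for neuronal excitability differed in the cortex of mice given DPAn-6.

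Among the sodium channel alpha subunits, 3 genes of the adult central nervous system made up most of the transcript. Expression was scaled here to CPM per kilobase of exon (CPM/kb), where CPM are counts scaled to a common library total, which allows genes of different length to be set side by side. Scn8a, the channel of axon initial segments and nodes, had 39.4 ± 2.75 CPM/kb in CTRL (SD, n = 7) and 38.0 ± 2.45 in DPAn-6 mice (SD, n = 5). Scn2a followed with 31.5 ± 5.74 and 30.1 ± 1.84 CPM/kb, and Scn1a, which is prominent in inhibitory neurons, with 18.5 ± 3.20 and 17.2 ± 2.35 CPM/kb. Over the 12 mice, Scn8a made up 42.4% of the summed CPM/kb of the 9 alpha genes described here on average, Scn2a 33.5% and Scn1a 19.4%. The order Scn8a, Scn2a, Scn1a, Scn3a was found in 12 of 12 mice. Scn3a, which is known from the developing brain, had 3.37 CPM/kb in CTRL mice. Channels known from peripheral nerve or glia were rarer, with mean levels in CTRL of 0.796 CPM/kb for Scn7a, 0.232 for Scn10a and 0.117 for Scn9a. Neighbours at this low end were not separated, since Scn10a exceeded Scn9a in 7 of 12 mice. Scn4a, the sodium channel of skeletal muscle, and Scn11a, of sensory neurons, had at most 2 and 3 counts in any mouse and were not tested.

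Among the calcium channel alpha subunits, Cacna1a, the P/Q-type channel of presynaptic terminals, was the most abundant, with 26.3 CPM/kb in CTRL and 26.8 in DPAn-6 mice and 25% of the class on average. Cacna1i (16.9 CPM/kb in CTRL, a T-type channel), Cacna1b (16.6, N-type) and Cacna1e (15.6, R-type) lay close together, and Cacna1i exceeded Cacna1b in 8 of 12 mice. The T-type genes Cacna1g (11.2) and Cacna1h (7.0) and the L-type genes Cacna1c (6.02) and Cacna1d (5.92) were lower. Cacna1c exceeded Cacna1d in 9 of 12 mice. Cacna1s, the L-type channel of skeletal muscle, stood at 0.149 CPM/kb in CTRL mice. Cacna1f, known from the retina, had 0 to 7 counts per mouse and was not tested.

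Of the sodium channel beta genes described here, Scn2b had 76.1 ± 5.20 CPM/kb in CTRL (SD, n = 7) and 78.3 ± 2.55 in DPAn-6 mice (SD, n = 5), and it exceeded Scn4b (31.7 in CTRL) in 12 of 12 mice. Scn4b exceeded Scn3b (17.6) in 11 of 12. Of the calcium channel beta genes, Cacnb3 (72.1 CPM/kb in CTRL) exceeded Cacnb1 (37.6) in 12 of 12 mice, while Cacnb1 exceeded Cacnb4 (34.8) in 9 of 12. Cacnb3 was the highest of this class in 11 of 12 mice, and in CTRL replicate 3 Cacnb4 (45.1 CPM/kb) stood above it (44.1). Cacna2d1, the main target of gabapentin together with its close relative Cacna2d2, led the alpha2delta class at 16.0 CPM/kb, above Cacna2d3 (10.2), Cacna2d2 (6.26) and Cacna2d4 (0.274). Of the Cacng genes, Cacng7 (112 CPM/kb), Cacng3 (52.3), Cacng8 (29.5) and Cacng2 (26.1) were well above Cacng4 (12.2), Cacng5 (2.59) and Cacng6 (0.589), and Cacng8 exceeded Cacng2 in 10 of 12 mice. Cacng1, the skeletal muscle subunit, had 0 to 6 counts per mouse and was not tested.

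These levels per kilobase depend on the length used. Divided by the longest coding transcript in place of all exons of the gene, the level of Cacna1e was 25.7 CPM/kb over the 12 mice, above Cacna1i (17.9) and Cacna1b (17.1). On the same scale Cacna2d1 (26.5 CPM/kb) and Cacna2d3 (26.0) had nearly equal levels. The gene with the highest level of those described in each class was the same by either length.

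**Figure D1:**
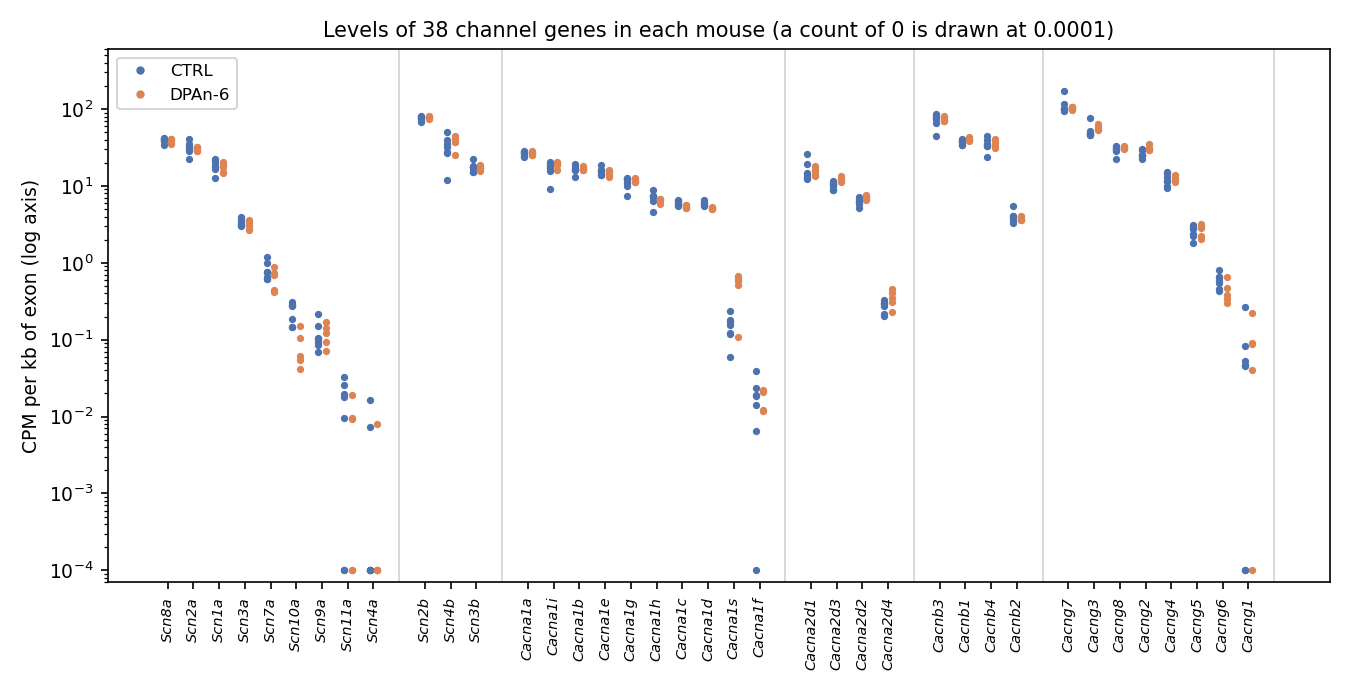
Level of each channel gene in CPM per kilobase of exon (vertical log axis), by class, with 1 point per mouse for 7 CTRL and 5 DPAn-6 mice. Of the genes plotted, Scn2b, Scn8a, Cacna1a, Cacna2d1, Cacnb3 and Cacng7 lead their classes, and the points of both groups overlap for nearly all genes.

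The estimated differences between the groups were small for the transcripts of the main neuronal channels. Of the 38 genes, 34 had enough counts for edgeR's filter and were tested among 15688 genes, and 29 of the 34 had a log2 fold change (DPAn-6 against CTRL) within 0.25 of 0. The median log2 fold change was 0.01 over the 34 genes, with 18 above 0 and 16 below, where 48.7% of all genes tested were above 0. For the 27 genes with at least 500 counts in every mouse, the log2 fold changes lay between -0.22 and 0.23, and 0 of the 27 passed an adjusted p of 0.05 by edgeR's quasi-likelihood test, while 4 had an unadjusted p below 0.05. The other 7 of these tested genes had at most 295 counts in any mouse, and 2 of them passed: Scn10a was lower and Cacna1s was higher in DPAn-6 mice. This count of 2 in 34 stands beside 1.55% of all genes tested, with 1 gene higher beside 0.408% and 1 lower beside 1.14%. At an unadjusted p below 0.05 there were 6 of 34 channel genes, against 14.5% of all genes tested. They were 3 higher, beside 5.51% of all genes, and 3 lower, beside 9.02%. In 1 gene of the 34, Cacna1d, the groups did not overlap, against 3.22% of all genes. It was lower (1.49% of all genes), and 0 channel genes lay apart in the higher direction (1.73% of all genes). In bulk tissue, fewer cells of a type and less RNA per cell cannot be told apart.

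**Figure D2:**
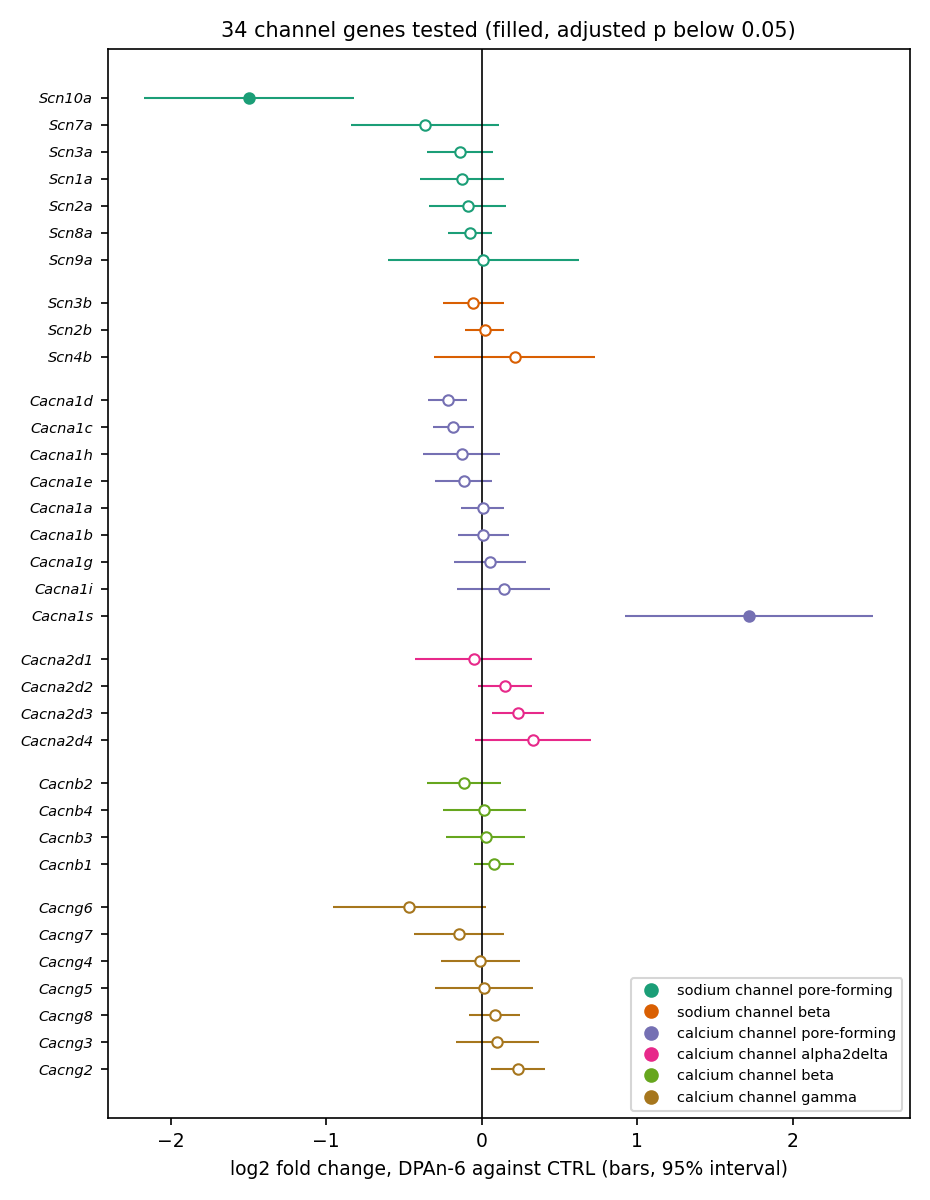
Log2 fold change of 34 tested channel genes in DPAn-6 against CTRL mice (horizontal axis) with 95% confidence intervals from edgeR's quasi-likelihood fit, coloured by class. Scn10a lies to the left and Cacna1s to the right, each with an interval that excludes 0, while 29 genes lie within 0.25 of 0. Among those 29, the intervals of Cacna1d, Cacna1c, Cacna2d3 and Cacng2 also exclude 0.

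By class, 6 of the 16 tested pore-forming genes were above 0 and 10 below, with a median log2 fold change of -0.10. Of the 18 tested accessory genes, 12 were above 0 and 6 below, with a median of 0.02. The 7 tested sodium channel alpha genes had a median of -0.12, with 6 below 0. Medians were 0.01 for the 9 calcium channel alpha genes, 0.02 for the sodium beta genes, 0.19 for the alpha2delta genes, 0.02 for the calcium beta genes and 0.02 for the Cacng genes. Exon length also differed between the kinds, from a median of 10137 bases for the pore-forming genes to 4656 bases for the accessory genes, and the values by length are given further on.

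Scn10a, which encodes the tetrodotoxin-resistant sodium channel of nociceptive sensory neurons, was the channel gene with the smallest p (ENSMUSG00000034533, GRCm38 chromosome 9, 119608456 to 119719322, minus strand, 7966 bases of exon). The counts were few, from 18 to 48 per CTRL mouse. Its expression in CTRL mice ran from 0.24 to 1.31 log2 CPM with a median of 1.17. The DPAn-6 replicates 1 to 5 had -1.11, -0.20, 0.30, -1.47 and -0.97 log2 CPM, from 8, 15, 24, 5 and 13 counts. All of them lay below the CTRL mean and 4 of 5 below every CTRL mouse. For Scn10a the difference was a fall by 1.5 on the log2 scale (standard error 0.32, 95% confidence interval -2.17 to -0.82, edgeR adjusted p = 0.0292, exact permutation p = 0.00379). The log2 fold change was -1.85 in the 14-month mice (edgeR unadjusted p = 0.000194, adjusted p = 0.111), in a fit that called 9 of 15953 genes. In the 12-month mice the log2 fold change was -0.70 (edgeR unadjusted p = 0.171, adjusted p = 0.452). The interaction of treatment and age had an edgeR adjusted p of 0.905. Over the 34 tested channel genes, 0 had an adjusted and 0 an unadjusted interaction p below 0.05. Of 13 other genes read within 400 kb of Scn10a, looked up after the values had been seen, 2 had an unadjusted p below 0.05, beside 14.5% of all genes tested. Of these 2, Acvr2b, an activin receptor, passed adjustment (log2 fold change -0.55, standard error 0.13, edgeR adjusted p = 0.0490, below 0.05 in 2 of 12 fits without 1 mouse).

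The libraries also differed in other transcripts. Ttr, which marks the choroid plexus, had 23880, 18344 and 2558 counts in CTRL replicates 2, 5 and 3, against 107 to 420 in the other CTRL mice and 32 to 391 in the DPAn-6 mice. Scn10a had 18, 48 and 34 counts in CTRL replicates 2, 5 and 3, and 20 to 42 in the other CTRL mice. With the log2 CPM of Ttr as a covariate, the log2 fold change of Scn10a was -1.48 (edgeR unadjusted p = 0.00323, adjusted p = 0.321). With the mean of the striatal markers as a covariate it was -1.41 (edgeR unadjusted p = 0.00109, adjusted p = 0.0738). The Ttr fit called 17 of 15688 genes, against 243 without a covariate. Without those 3 CTRL mice, which were chosen after the data were seen, Scn10a was at -1.43 (edgeR adjusted p = 0.0265). Mural cell markers were also lower: 3 of 5 had an unadjusted p below 0.05, the median log2 fold change was -0.49, Myh11, the smooth muscle myosin, passed adjustment at -0.76 (edgeR adjusted p = 0.00551), and their summed expression was 7.72 to 8.21 log2 CPM in CTRL and 7.59 to 7.70 in DPAn-6 mice. Of all genes tested, 9.02% were lower at an unadjusted p below 0.05 and 1.14% were lower after adjustment. Whether mural cells had a part in the fall of Scn10a was not tested.

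Cacna1s, the voltage sensor and L-type calcium channel of skeletal muscle, was the channel gene that was higher with an adjusted p below 0.05 (ENSMUSG00000026407, chromosome 1, 136052750 to 136119822, plus strand, 6550 bases of exon). CTRL mice had 7 to 24 counts and -1.25 to 0.65 log2 CPM, with a median of 0.08. DPAn-6 replicates 1 to 4 had 2.15, 2.04, 1.94 and 1.79 log2 CPM from 81, 73, 76 and 52 counts, while replicate 5 had -0.44 from 19 counts. The first 4 mice were above every CTRL mouse, and the fifth lay inside the CTRL range. Cacna1s rose by 1.72 on the log2 scale, or 3.30-fold (standard error 0.37, interval 0.92 to 2.52, edgeR adjusted p = 0.0346, exact permutation p = 0.0126). Without DPAn-6 replicate 5 the log2 fold change was 2.01 (edgeR adjusted p = 0.00174). It was 1.5 in the 14-month mice (edgeR unadjusted p = 0.0111, adjusted p = 0.390) and 2.21 in the 12-month mice (adjusted p = 0.00803, from 2 mice in each group). With limma-voom the adjusted p of Cacna1s was 0.165, at a log2 fold change of 1.48. With age as a covariate it was 0.0548 and with Ttr as a covariate 0.411 (edgeR), at log2 fold changes of 1.72 and 1.81. The unadjusted edgeR p of Cacna1s was 0.000653 with age and 0.00803 with Ttr.

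Of 5 other skeletal muscle genes, 3 were tested and 0 passed adjustment by edgeR, with 1 at an unadjusted p below 0.05. Ckm and Tnnt3 had 0 to 4 counts per mouse, Myh1 and Myh2 had log2 fold changes of 0.07 and 0.11, and Acta1, skeletal actin, was at 0.43 (edgeR adjusted p = 0.305). Their summed expression was 2.13 to 3.43 log2 CPM in CTRL and 3.31 to 3.72 in DPAn-6 mice. An antisense gene, Gm37759, overlaps 1309 bases or 20.0% of the exons of Cacna1s and had at most 1 count in any mouse. Of 15 other genes tested within 400 kb, also looked up after the values had been seen, 6 had an unadjusted p below 0.05, beside 14.5% of all genes tested. Among these 6, Inava (log2 fold change 0.65, standard error 0.13, edgeR adjusted p = 0.0210) and Ddx59 (0.52, standard error 0.09, edgeR adjusted p = 0.0105) were higher, and in both every DPAn-6 mouse exceeded every CTRL mouse, replicate 5 included. The edgeR adjusted p was below 0.05 in 10 of 12 fits without 1 mouse for Inava and in 12 of 12 for Ddx59. Of all genes tested, 1.55% passed adjustment and 1.73% lay fully apart in the higher direction. Ascl5 (0.66, edgeR adjusted p = 0.290) and Gm26781 (0.99, edgeR adjusted p = 0.127) were higher without passing adjustment. In both, DPAn-6 replicate 5 was the lowest treated mouse and lay inside the CTRL range, at -0.60 and -0.77 log2 CPM. For Ascl5, DPAn-6 replicate 3 (-0.46) also lay inside the CTRL range, which reached -0.33. Tnnt2 (-0.38, edgeR adjusted p = 0.309) and Igfn1 (-0.30, edgeR adjusted p = 0.321) were lower.

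Since Cacna1s made the largest move of the 34 genes tested here, the stretch upstream of its annotated start (chr1:136052561-136052749, GRCm38.p6, plus strand, from RefSeq) is shown, with the E-box CAGCTG in capitals. This motif, bound by muscle and neuronal basic helix-loop-helix factors, reads the same on both strands.
Cacna1s: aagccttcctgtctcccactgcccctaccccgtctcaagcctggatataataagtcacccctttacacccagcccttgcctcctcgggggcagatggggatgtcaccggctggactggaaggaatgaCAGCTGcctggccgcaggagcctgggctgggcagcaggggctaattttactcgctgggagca
CAGCTG stood in 16.3% of all 32851 RefSeq promoter windows of 250 bases before to 50 bases after a gene start, and in 13 of the 41 windows of channel genes. A match is a run of letters and not a shown binding site.

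**Figure D3:**
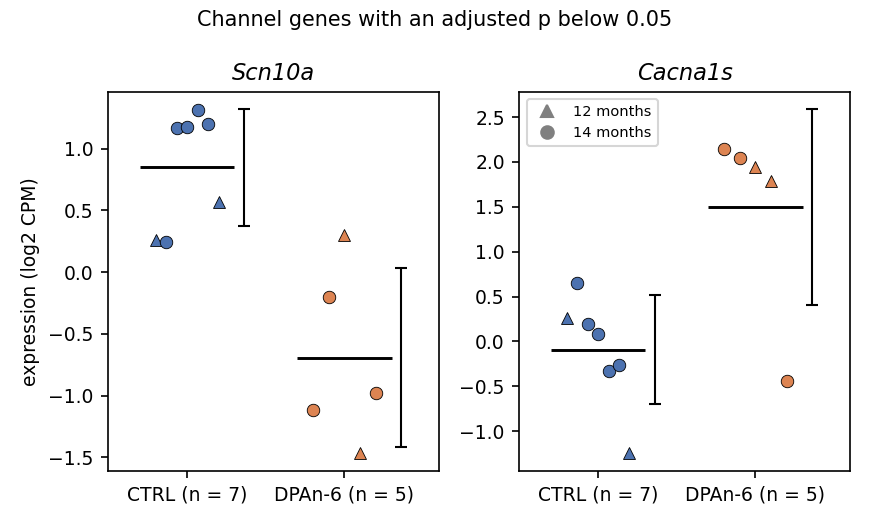
Expression in log2 CPM (vertical axis) of Scn10a and Cacna1s in each of 7 CTRL and 5 DPAn-6 mice, with triangles for 12 months and circles for 14 months, a line at the group mean and a bar for the SD. For Scn10a 4 of 5 DPAn-6 mice lie below every CTRL mouse, while for Cacna1s 4 of 5 lie above and replicate 5 lies at -0.44.

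The calls for these 2 genes did not hold in every fit without 1 mouse. With each mouse left out in turn, the edgeR adjusted p of Scn10a ran from 0.0137 to 0.0999 and was below 0.05 in 5 of 12 fits. Leaving out CTRL replicate 4, 5 or 6 raised it to 0.0586, 0.0638 and 0.0564, and leaving out DPAn-6 replicate 1, 2, 4 or 5 to 0.0960, 0.0597, 0.0942 and 0.0999. For Cacna1s it ran from 0.00174 to 0.106 and passed in 3 of 12 fits, those without CTRL replicate 2 or 3 or DPAn-6 replicate 5. It was 0.0594, 0.0643, 0.0693, 0.0672 and 0.0502 without CTRL replicates 1, 4, 5, 6 and 7, and 0.0986, 0.0828, 0.106 and 0.0855 without DPAn-6 replicates 1 to 4. Each gene kept its direction in the 12 fits, with log2 fold changes of -1.83 to -1.34 for Scn10a and 1.59 to 2.01 for Cacna1s. The unadjusted edgeR p was below 0.05 in 12 of 12 fits for both, at most 0.00149 for Scn10a and 0.00134 for Cacna1s. The number of all genes called also moved, from 64 to 953 in these fits, against 243 with all 12 mice.

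The brain L-type genes Cacna1d and Cacna1c were both slightly lower in DPAn-6 mice, without passing adjustment. Cacna1d, which opens at low voltages and supports pacemaking, ran from 6.11 to 6.36 log2 CPM in CTRL mice with a median of 6.24 (ENSMUSG00000015968, chromosome 14, 30039939 to 30491455, minus strand). The treated mice had 5.99, 6.09, 6.04, 6.04 and 5.98 log2 CPM, all 5 below every CTRL mouse. A log2 fold change of -0.22 was estimated (standard error 0.06, interval -0.34 to -0.09, edgeR unadjusted p = 0.00194, adjusted p = 0.0804, exact permutation p = 0.00253). Exons of Chdh on the opposite strand overlap 589 bases of its 12621 bases of exon. The value was -0.26 in the 14-month mice (edgeR unadjusted p = 0.0140, adjusted p = 0.418) and -0.11 in the 12-month mice (edgeR unadjusted p = 0.210, adjusted p = 0.4998). Without CTRL replicate 3 the adjusted p of Cacna1d was 0.0194 at the same log2 fold change.

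Cacna1c, the main L-type channel of neurons, heart and vascular smooth muscle, ran from 6.87 to 7.10 log2 CPM in CTRL mice with a median of 7.0 (ENSMUSG00000051331, chromosome 6, 118587240 to 119196418, minus strand). DPAn-6 mice had 6.76, 6.91, 6.79, 6.91 and 6.81 log2 CPM, with 3 of 5 below every CTRL mouse. A log2 fold change of -0.18 was estimated (standard error 0.06, interval -0.32 to -0.05, edgeR unadjusted p = 0.0103, adjusted p = 0.172, exact permutation p = 0.0126). At 21191 bases its exons are among the longest of the channel genes, and once the trend of every library on length and GC content was removed its log2 fold change was -0.01 (edgeR adjusted p = 0.969). For Cacna1d it was then -0.11 (edgeR adjusted p = 0.217).

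On the accessory side, Cacna2d3 and Cacng2 were slightly higher in DPAn-6 mice, again without passing adjustment. Cacna2d3, an alpha2delta subunit with roles in hearing and pain processing, ran from 6.25 to 6.68 log2 CPM in CTRL mice with a median of 6.51 (ENSMUSG00000021991, chromosome 14, 28904943 to 29721864, minus strand). Treated mice had 6.75, 6.73, 6.89, 6.66 and 6.62 log2 CPM, and 3 of 5 were above every CTRL mouse. The estimated difference was 0.23 in log2 fold change (standard error 0.08, interval 0.07 to 0.40, edgeR unadjusted p = 0.00859, adjusted p = 0.159, exact permutation p = 0.00884). With the length and GC trend removed it was 0.31 and passed adjustment (edgeR adjusted p = 0.0400). With Ttr as a covariate it was 0.08 (edgeR adjusted p = 0.9998).

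The upstream stretch of Cacna2d3 (chr14:29721865-29722114, GRCm38.p6, minus strand, from RefSeq) is shown because this gene gained a call once length and base composition were accounted for. Capitals mark the E-box CAGCTG, the GC box GGGCGG and its reverse CCGCCC, which Sp-family factors can bind.
Cacna2d3: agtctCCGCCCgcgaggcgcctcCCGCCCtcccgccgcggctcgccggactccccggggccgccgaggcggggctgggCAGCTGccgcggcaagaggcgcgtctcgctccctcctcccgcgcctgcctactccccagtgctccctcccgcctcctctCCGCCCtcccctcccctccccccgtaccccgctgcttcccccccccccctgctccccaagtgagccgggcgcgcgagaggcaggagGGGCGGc
GGGCGG, on either strand, stood in 35.7% of all RefSeq promoter windows and in 16 of the 41 windows of channel genes, TATAAA in 13.6% and in 2 of 41, and the cyclic AMP response element TGACGTCA in 1.79% and in 0 of 41.

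Cacng2, or stargazin, the TARP that carries AMPA receptors to the synapse, ran from 6.95 to 7.39 log2 CPM in CTRL mice with a median of 7.13 (ENSMUSG00000019146, chromosome 15, 77991748 to 78120028, minus strand, 5510 bases of exon). The DPAn-6 values were 7.59, 7.33, 7.35, 7.40 and 7.44 log2 CPM, all above the CTRL mean and 3 above every CTRL mouse. The estimated difference was 0.23 in log2 fold change (standard error 0.08, interval 0.06 to 0.41, edgeR unadjusted p = 0.0127, adjusted p = 0.187, exact permutation p = 0.00758). Without CTRL replicate 3 it was 0.28 (edgeR adjusted p = 0.0163).

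**Figure D4:**
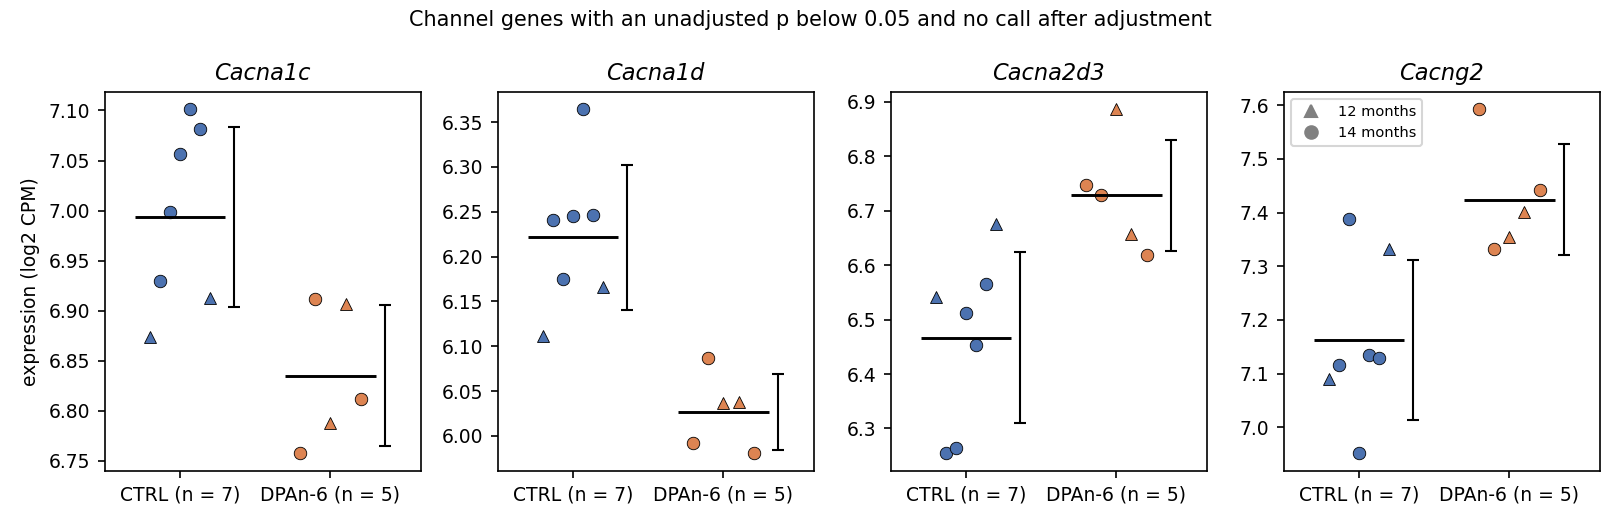
Expression in log2 CPM (vertical axes that do not start at 0) of Cacna1c, Cacna1d, Cacna2d3 and Cacng2 in each of 7 CTRL and 5 DPAn-6 mice, with triangles for 12 months and circles for 14 months, a line at the group mean and a bar for the SD. The groups are fully apart for Cacna1d, and 3 of 5 DPAn-6 mice lie outside the CTRL range for each of the others.

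For the gene with the highest level of those described in each class, 0 of 6 passed adjustment by edgeR over all 12 mice, and 0 of 6 had an unadjusted p below 0.05. Scn8a ran from 9.06 to 9.37 log2 CPM in CTRL (median 9.31) and stood at 9.20, 9.32, 9.32, 9.16 and 9.12 in DPAn-6 mice, and its log2 fold change was -0.07 with an interval of -0.22 to 0.07 (edgeR adjusted p = 0.687). Cacna1a ran from 8.09 to 8.34 in CTRL (median 8.25) and stood at 8.34, 8.31, 8.28, 8.16 and 8.19 in DPAn-6 mice (log2 fold change 0.01, interval -0.13 to 0.14, edgeR adjusted p = 0.984). Scn2b ran from 8.30 to 8.57 in CTRL (median 8.50) and stood at 8.45, 8.52, 8.57, 8.52 and 8.49 in DPAn-6 mice (log2 fold change 0.02, interval -0.11 to 0.14, edgeR adjusted p = 0.924). For these 3 genes the interval excludes a change of 0.25 on the log2 scale. In Cacnb3 and Cacng7, CTRL replicate 3 stood apart and the intervals were wider. Cacnb3 had 7.47 in CTRL replicate 3 and 8.04 to 8.43 in the others, against 8.33, 8.19, 8.15, 8.13 and 8.30 in DPAn-6 mice (log2 fold change 0.02, interval -0.23 to 0.28, edgeR adjusted p = 0.958). Cacng7 had 8.71 in CTRL replicate 3 and 7.85 to 8.16 in the others, against 7.96, 7.88, 8.0, 8.02 and 8.0 (log2 fold change -0.15, interval -0.44 to 0.14, edgeR adjusted p = 0.693). Cacna2d1 ran from 7.24 to 8.33 in CTRL (median 7.46) and stood at 7.42, 7.71, 7.62, 7.84 and 7.40 in DPAn-6 mice (log2 fold change -0.05, interval -0.43 to 0.32, edgeR adjusted p = 0.934). In the 12-month mice alone, 2 in each group, Cacna2d1 was higher with a log2 fold change of 0.35 (edgeR adjusted p = 0.0470), against -0.23 in the 14-month mice (edgeR adjusted p = 0.800). Without CTRL replicate 3, the channel genes with an adjusted p below 0.05 were 5. Cacna1d, Cacng2 and Cacng3 were added to the 2 of the full set. Over all genes, that fit called 953 of 15616 tested, against 243 of 15688 with all 12 mice. Cacng3, a TARP of excitatory neurons, then had a log2 fold change of 0.23 (standard error 0.05, edgeR adjusted p = 0.0204) in place of 0.10 (edgeR adjusted p = 0.788).

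Among the remaining genes, Scn4b encodes a subunit that is abundant in striatal neurons. Its counts per CTRL mouse ran from 911 to 4293, and its log2 fold change was 0.21 (interval -0.31 to 0.73, edgeR adjusted p = 0.763). The 8 striatal markers were all above 0 with a median of 0.34, and 0 of 8 passed adjustment, with 1 at an unadjusted edgeR p below 0.05. Scn7a, an atypical sodium channel of glia and other non-neuronal cells, had a log2 fold change of -0.37 (interval -0.84 to 0.11, edgeR adjusted p = 0.498) and Cacng6 one of -0.47 (interval -0.96 to 0.02, edgeR adjusted p = 0.373), from 60 to 135 and 9 to 30 counts per mouse. Cacna2d4 was at 0.33 (interval -0.04 to 0.71, edgeR adjusted p = 0.418), from 32 to 101 counts. Scn9a, at 15 to 42 counts, had a log2 fold change of 0.01 with an interval of -0.61 to 0.62.

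Among all genes tested, the median log2 fold change was 0.03 in the quartile with the shortest exons and -0.06 in the quartile with the longest (6690 bases and more), and 21 of the 34 tested channel genes were in the longest quartile, where their median was -0.07. Across the 34 channel genes, Spearman's rho between exon length and log2 fold change was -0.294, a description over genes measured in the same libraries. Within each kind the relation differed, with a rho of 0.253 over the 18 accessory genes and -0.0824 over the 16 pore-forming genes. The 3 channel genes in the shortest quartile had a median log2 fold change of -0.15, below that of the longest. With the trend of every library on length and GC content removed, rho was 0.10 over the 34 genes and 0.571 over the accessory genes, the median of the channel genes in the longest quartile was 0.06, and the medians of the pore-forming and accessory genes were 0.04 and 0.06. The trend itself varied between libraries: the longest quartile exceeded the shortest by 0.437 on the log2 scale in CTRL replicate 3, while the other 11 mice lay between -0.164 and 0.0615. With the trend removed, Scn10a was at -1.45 (edgeR adjusted p = 0.0231) and Cacna1s at 1.76 (edgeR adjusted p = 0.0180).

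**Figure D5:**
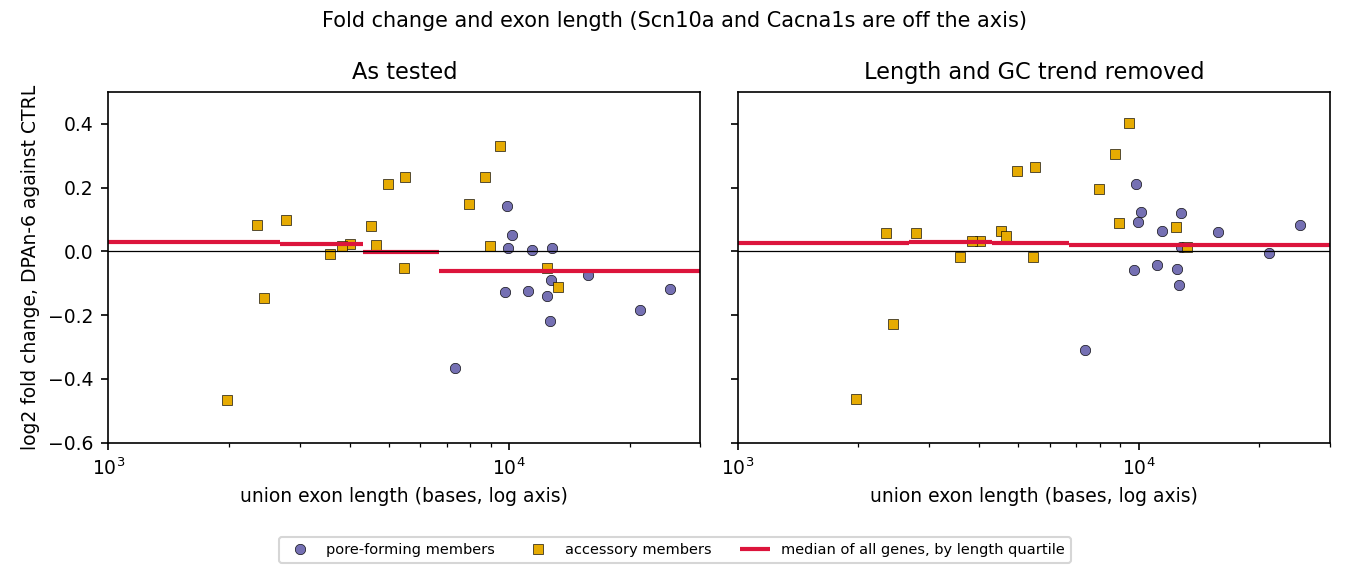
Log2 fold change of tested channel genes (vertical axis) against union exon length in bases (horizontal log axis), as tested and after removal of that library-wise trend on length and GC content, with red lines for the median of all genes in each quartile of length. Scn10a and Cacna1s lie off the axis. The red line falls from 0.03 to -0.06 on the left and is nearly flat on the right, and the pore-forming genes sit at the long end.

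Genes whose products bind or place these channels were also read, from lists written with earlier results of these data known. Of 15 sodium channel partners, which include the ankyrin-G gene Ank3, Sptbn4, Nfasc, the intracellular FGFs and the calmodulin genes, 15 were tested, 0 had an unadjusted edgeR p below 0.05, and the median log2 fold change was 0.02. Of 14 tested calcium channel partners 2 had an unadjusted p below 0.05, both lower. Over all genes tested, 14.5% had an unadjusted p below 0.05, and 9.02% were lower at that limit. Ahnak, a giant scaffold protein that binds calcium channel beta subunits and is high in vessels, stood at 6.66 ± 0.13 log2 CPM in CTRL (SD, n = 7) and 5.85 ± 0.13 in DPAn-6 mice (SD, n = 5), with a log2 fold change of -0.83 (standard error 0.08, edgeR adjusted p = 0.000317), and it passed in 12 of 12 fits without 1 mouse. Rims2, an active-zone protein that holds calcium channels near vesicles, had a log2 fold change of -0.21 (edgeR adjusted p = 0.105). Of the 5 tested genes of the sodium leak channel complex, which sets resting excitability, Unc80 had a log2 fold change of -0.31 (standard error 0.07, edgeR adjusted p = 0.0400). Its adjusted p was below 0.05 in 3 of the 12 fits without 1 mouse (0.0129 to 0.152), and after removal of the length and GC trend the log2 fold change was -0.18 (edgeR adjusted p = 0.0798). In the same complex, the pore gene Nalcn was at 0.01 (edgeR adjusted p = 0.988) and Unc79 at -0.07 (edgeR adjusted p = 0.621). Fam155a, which encodes another part of that complex, was at 0.14 (edgeR adjusted p = 0.292).

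Markers of the labelled tissue were present in every library: 8 neuronal markers summed to 12.5 to 13.0 log2 CPM in CTRL and 12.8 to 12.9 in DPAn-6 mice. All 8 were above 0 in log2 fold change, with a median of 0.11, and 0 of 8 passed adjustment by edgeR, with 2 at an unadjusted p below 0.05. Of all genes tested, 14.5% had an unadjusted p below 0.05 and 1.55% passed adjustment. The 7 excitatory and 8 inhibitory neuron markers had medians of 0.04 and 0.20. Medians were 0.22 for oligodendrocyte markers, -0.03 for their precursors, -0.11 for astrocyte, -0.14 for endothelial, -0.48 for microglial (2 of 6 lower after adjustment) and -2.71 for the 3 tested choroid plexus markers. The part of these shifts in the channel genes was not tested.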

How the data were processed

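Cortex RNA of 12 E4FAD mice, 7 CTRL and 5 DPAn-6, was sequenced, with 1 library per mouse. The authors selected poly(A) RNA, prepared KAPA mRNA libraries and aligned the reads with STAR (version 2.5.3a, GRCm38 and mm10 in the submitters' processing notes), and they deposited raw counts per gene without normalization. The strand setting of the counting is not given in the sources used here. Reads of genes that overlap on opposite strands could be shared. Groups and ages were taken from the sample labels.

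Gene types, positions and lengths (the union of exons) came from the GENCODE M21 annotation of GRCm38, which held 50339 of the 50563 gene identifiers, and promoter windows from RefSeq (GRCm38.p6, 30 of the 38 genes matched). Log2 CPM used a pseudocount of 0.5 counts and the total on genes. The test across genes was edgeR 4.0.16 under R 4.3.3 (TMM, filterByExpr by group, glmQLFit and glmQLFTest, no covariate), with Benjamini-Hochberg adjustment over the 15688 genes tested. Intervals are 95% from the same fit. Means of single genes were set against all 792 splits of the mice (exact permutation test, two-sided, smallest p 0.00126). The p-values measure the spread between mice, and the depth of 15208803 to 26520251 counts leaves genes under about 100 counts with wide intervals. Figures and tables were made with Python 3.11.15, numpy 2.4.6, pandas 2.3.3 and scipy 1.17.1. The fit was tested on simulated data.

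A further 2 genes that the rule finds are not reported here and are left out of every count of channel genes, though all genes entered the fit. The genes and the 15 marker and partner lists were chosen with earlier results of these data known. Values in every mouse are given for channel genes with an unadjusted p below 0.05 and for the gene with the highest level per length, of those reported, in each of 6 classes. Partner genes are named where their unadjusted p is below 0.05, with the others of the leak complex named after their values were seen. The alternatives were DESeq2 1.42.0, limma-voom (limma 3.58.1), no TMM, no filter, at least 1 CPM in 5 libraries, age, Xist, Ttr or striatal markers as covariate, each age alone, the replicate number as a block, removal of the length and GC trend (splines with 4 degrees of freedom), that removal with the block, and each mouse left out. The study names limma-voom for differential expression, and it selected its affected genes by two-tailed t-tests at p below 0.05. Chosen after seeing the data were the same 10 mice without the block, the set without the 3 CTRL mice highest in Ttr, and the interaction of treatment and age.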

Additional observations from a re-analysis of the deposited data

Results flagged for a closer look

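In 7 of 68 gene and group combinations, the highest or the lowest mouse stood further from its nearest neighbour than Dixon's 95% limit allows, where chance alone flags about 1 in 20. Of the 7, 6 concerned CTRL replicate 3, the library whose longest quartile of genes exceeded its shortest by 0.437 on the log2 scale. That mouse was high in Cacnb2 (6.18 log2 CPM, others 5.46 to 5.76), Cacng3 (7.75, others 6.98 to 7.18) and Cacng7 (8.71, others 7.85 to 8.16). It was low in Cacnb3 (7.47, others 8.04 to 8.43), Cacng8 (5.73, others 6.06 to 6.27) and Cacna1i (6.51, others 7.29 to 7.65). The remaining value was Cacna1s in DPAn-6 replicate 5 (-0.44 log2 CPM, others 1.79 to 2.15). The causes were not tested.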

How the results depend on the processing

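The number of channel genes higher with an adjusted p below 0.05, 1 as reported, was 0 with limma-voom, age as covariate, the 14-month mice, Ttr as covariate, the replicate block and the same 10 mice without it, and 2 in the 12-month mice, with the length and GC trend removed and without the 3 CTRL mice highest in Ttr. The number lower, 1 as reported, was 2 with DESeq2 and 0 in the 14-month mice, in the 12-month mice, with Ttr or striatal markers as covariate, with the block, in the same 10 mice and with the block and the trend removed. Over all genes, 243 of 15688 were called as reported. That number was 9 in the 14-month mice, 17 with Ttr, 69 with the block, 148 in the same 10 mice and 162 with striatal markers. It was 165 with block and trend, 184 with age and 224 with limma-voom. It was 540 with the trend removed, 541 without the 3 mice, 696 with DESeq2 and 709 in the 12-month mice. At an unadjusted p below 0.05, the 3 higher became 6 with the trend removed, 5 with block and trend, 1 with Ttr and 5 without the 3 mice, and the 3 lower became 0 in the 12-month mice and 1 with block and trend. Without each mouse in turn these counts were 0 to 3, 0 to 2, 3 to 5 and 3 to 5.

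The accessory median of 0.02 was 0.0963 in the 14-month mice, 0.0894 in the 12-month mice and 0.0313 to 0.0664 without each mouse. The pore-forming median of -0.10 was 0.0167 in the 12-month mice, 0.0370 with the trend removed, 0.0496 with block and trend, and -0.12 to -0.06 without each mouse.

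Among single genes, the direction turned for Cacna2d1 (0.35 in the 12-month mice, 0.0753 with the trend removed, 0.0669 with block and trend, 0.0444 with striatal markers, 0.0687 without the 3 mice), Cacnb3 (-0.14 in the 12-month mice, -0.0220 without the 3 mice), Cacng7 (0.12 in the 12-month mice, 0.0375 with Ttr, 0.0472 without the 3 mice), Scn2b (-0.0107 in the 12-month mice, -0.0712 with Ttr, -0.0089 with striatal markers, -0.0415 without the 3 mice), Scn8a (0.0619 with the trend removed, 0.0836 with block and trend) and Cacna1c (0.0040 with block and trend). Without each mouse in turn, Cacna1a ran from -0.0172 to 0.0381, Cacna2d1 from -0.11 to 0.12, Cacnb3 from -0.0611 to 0.0728 and Scn2b from -0.0059 to 0.0424. The causes were not tested. Scn10a and Cacna1s kept their direction under the 28 alternatives. DESeq2 called 3 channel genes, the 2 reported and Cacna1d (DESeq2 adjusted p = 0.00351), beside 696 of all 15688 genes tested.

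The replicate numbers did not pair the mice: same-numbered mice had correlations of -0.126 to 0.219, and a mouse correlated best with its own number in 1 of 5 CTRL and 0 of 5 DPAn-6 mice. The block left 0 of these channel genes with an edgeR adjusted p below 0.05, as did the same 10 mice without it, with 3 higher and 2 lower at an unadjusted p below 0.05 with the block, and 3 and 3 without it. Over all 15497 genes tested, 69 were called with the block and 148 in the same 10 mice without it.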
